A study of Danio rerio with 12 samples.

Results

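The androgen receptor gene ar (ENSDARG00000067976) and the oestrogen receptor genes esr1 (ENSDARG00000004111), esr2a (ENSDARG00000016454) and esr2b (ENSDARG00000034181) were followed in gonads of juvenile zebrafish. These 4 genes were taken by their Ensembl identifiers from a table of 32520 genes, and all 4 were among the 19292 genes abundant enough to be tested. The study sequenced polyA+ RNA of 12 single gonads, which were dissected and sorted into ovaries and testes under a microscope. There were 3 ovaries and 3 testes at 30 days post fertilization (dpf), and 2 ovaries and 4 testes at 25 dpf. All groups were of the AB strain and carried Tg(piwil1-egfp-nos3UTR)ihb327Tg, a transgene in which the promoter of the germ cell gene piwil1 drives EGFP, and no group lacked it. Fish of these ages are still completing sexual differentiation, and the cDNA of each gonad was amplified before sequencing, so the p-values below rest on the spread between single gonads. The sources used here do not say whether any gonads came from the same fish.

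Steroid hormones enter cells and bind receptors of the nuclear receptor family, which then attach to DNA and change the transcription of target genes. The androgen receptor answers to testosterone and 11-ketotestosterone, the main androgen of fish. Oestrogen receptor alpha is encoded by esr1, and oestrogen receptor beta by a pair of genes in zebrafish, esr2a and esr2b. This pair arose by duplication of the genome in the ancestor of teleost fishes. Androgens favour testis formation and oestrogens favour ovary formation in zebrafish.

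The total count per gonad was 4471588 to 5331223. Levels are given as counts per 1000000 counts (CPM) after scaling by TMM, a method that makes libraries comparable, and a floor of 3 counts corresponded to 0.528 to 0.806 CPM. The oocyte markers matched the labelled sex. All 10 oocyte marker genes tested were called higher in ovaries, beside 21.9% of all tested genes called higher over both ages. Their summed level was 5793 to 14750 CPM in ovaries and 303 to 1501 CPM in testes. Of the markers of testis cells, 0 of 5 for Sertoli cells and 0 of 4 for Leydig cells were called at 25 dpf. Only 4.59% of all tested genes were called lower at that age. At 30 dpf 4 of the Sertoli cell and 3 of the Leydig cell markers were called lower in ovaries, beside 16.5% of all tested genes. Of 6 markers of ovarian granulosa and theca cells 0 were called at 25 dpf, again beside 4.59% of all genes called lower. Both FOXL2 genes of that list averaged higher in 25 dpf testes (72.3 and 84.0 CPM) than in 25 dpf ovaries (17.8 and 48.2 CPM). Some gonads carried markers of neighbouring tissues. Skeletal muscle markers summed to 9860 CPM in 25 dpf testis 1 and to at most 146 CPM in the other gonads, and liver markers reached 3045 CPM and gut and pancreas markers 1750 CPM in 25 dpf testis 2. The liver sum was 1216 CPM and the gut and pancreas sum 942 CPM in 30 dpf testis 2, and the liver sum was 1065 CPM in 25 dpf testis 4.

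Both beta receptors were lower in ovaries than in testes, and their ranges did not overlap between the sexes. The level of esr2a averaged 85.1 ± 10.02 CPM in ovaries (SD, n = 5) and 231 ± 73.0 CPM in testes (SD, n = 7). The level of esr2b averaged 41.3 ± 7.82 CPM in ovaries and 121 ± 64.3 CPM in testes. The androgen receptor and esr1 overlapped between the sexes and were called in no comparison.

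For esr2a, the 3 ovaries at 30 dpf had 80.1, 93.2 and 81.9 CPM, against 303, 132 and 236 CPM in the 3 testes of that age. At 25 dpf the 2 ovaries had 72.8 and 97.3 CPM, against 228, 343, 169 and 205 CPM in the 4 testes. The highest ovary thus lay below the lowest testis, which was 30 dpf testis 2. Over both ages esr2a was 2.70-fold lower in ovaries, a log2 fold change of -1.43 (SE 0.23, 95% interval -1.95 to -0.92, edgeR adjusted p = 0.00069). In this comparison 21.3% of all tested genes were called lower in ovaries, and 8.2% lay without overlap below the testes.

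The esr2b gene had 34.4, 39.3 and 50.5 CPM in the 30 dpf ovaries, against 95.6, 114 and 229 CPM in the 30 dpf testes. At 25 dpf it had 48.6 and 33.9 CPM in ovaries, against 98.8, 187, 52.2 and 67.6 CPM in testes. The groups were separated by a narrow gap, since the highest ovary had 50.5 CPM and the lowest testis 52.2 CPM. Over both ages esr2b was 2.94-fold lower in ovaries, a log2 fold change of -1.56 (SE 0.35, 95% interval -2.32 to -0.80, edgeR adjusted p = 0.0042).

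The spread of both beta receptors was wide among testes and narrow among ovaries. The coefficient of variation of esr2b was 18.9% among ovaries and 53.3% among testes, where counting alone would give 7.42% in ovaries and 4.02% in testes. For esr2a it was 11.8% among ovaries and 31.6% among testes, where counting alone would give 5.19% in ovaries and 2.89% in testes. The counting values leave out noise from the amplification of the cDNA, and whether the sexes differed in spread was not tested.

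The androgen receptor had 35.5, 19.1 and 21.8 CPM in the 30 dpf ovaries, against 31.9, 24.5 and 27.2 CPM in the 30 dpf testes. At 25 dpf it had 6.92 and 21.2 CPM in ovaries, against 25.8, 44.7, 20.6 and 24.2 CPM in testes. The lowest gonad of all was 25 dpf ovary 1 and the highest was 25 dpf testis 2, while the other gonads of both sexes were mixed. Over both ages the log2 fold change of ar was -0.58 (SE 0.31, 95% interval -1.26 to 0.09, edgeR adjusted p = 0.142). This value depended on the 25 dpf ovaries. Without 25 dpf ovary 2 it was -1.06 and past the threshold (edgeR adjusted p = 0.0295), and without 25 dpf ovary 1 it was -0.25 (adjusted p = 0.512).

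The esr1 gene was covered by few reads, with 4 to 79 counts per gonad. It had 2.69, 1.05 and 13.7 CPM in the 30 dpf ovaries, against 12.6, 16.3 and 6.66 CPM in the 30 dpf testes. At 25 dpf it had 8.11 and 4.49 CPM in ovaries, against 8.03, 4.75, 8.70 and 3.95 CPM in testes. At 30 dpf the ovaries themselves spanned a 13.0-fold range, from ovary 2 with only 4 counts to ovary 3 with 59 counts. Over both ages the log2 fold change of esr1 was -0.51 (SE 0.53, 95% interval -1.68 to 0.66, edgeR adjusted p = 0.455). Leaving out 30 dpf ovary 3 made it -1.34 (adjusted p = 0.0231), and leaving out 30 dpf ovary 2 made it -0.26. The comparison of esr1 between the sexes thus depended on single ovaries of that age.

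**Figure D1:**
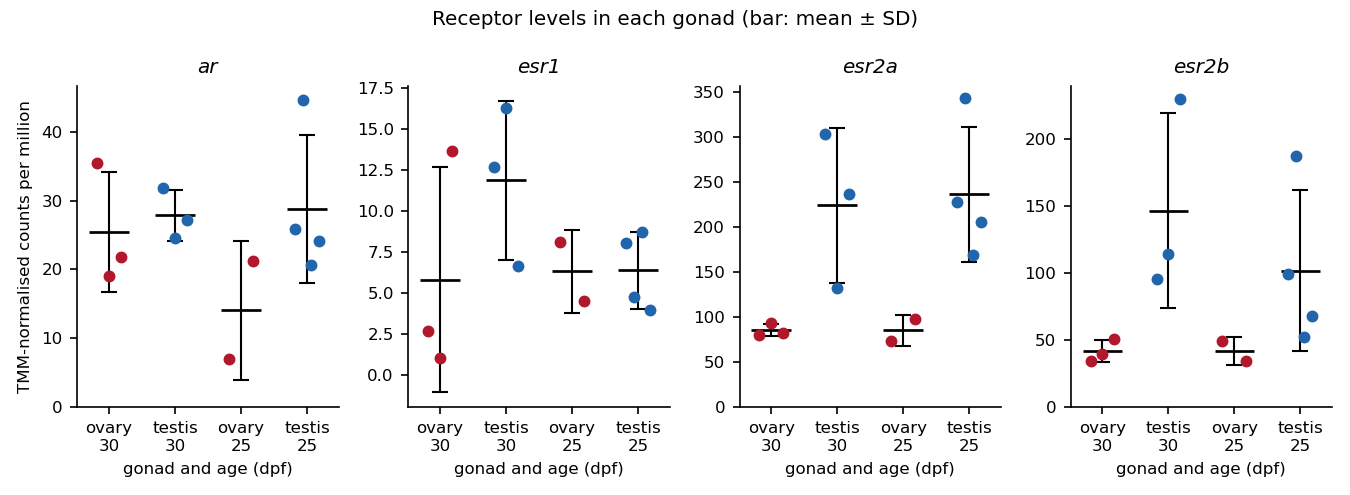
TMM-normalised level (CPM) of each receptor (vertical axes, which differ between panels, with the esr1 axis extended below 0 to hold the error bar) in ovaries (red) and testes (blue) at 30 and 25 dpf. Points are single gonads and black bars are the mean ± SD of 2 to 4 gonads. The ovaries lie at 72.8 to 97.3 CPM for esr2a and 33.9 to 50.5 CPM for esr2b, below all testes, whereas ar and esr1 overlap.

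Sex differences were then tested at each age. At 30 dpf esr2a was lower in ovaries with a log2 fold change of -1.40 (SE 0.31, edgeR adjusted p = 0.0059), and esr2b with -1.82 (SE 0.46, edgeR adjusted p = 0.011). These 2 of the 4 receptors compare with 16.5% of all tested genes called lower at that age, and 25.7% of genes had every ovary below every testis. The log2 fold change at 30 dpf was -0.13 (SE 0.41) for ar and -1.02 (SE 0.73) for esr1, with edgeR adjusted p of 0.826 and 0.300. Without 30 dpf ovary 3 the esr1 difference was -2.68 (edgeR adjusted p = 0.0096), and without 30 dpf ovary 2 it was -0.53.

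At 25 dpf only esr2a was called, with a log2 fold change of -1.47 (SE 0.35, edgeR adjusted p = 0.021), where 4.59% of all tested genes were called lower. The esr2b difference was -1.30 (SE 0.51) and missed the threshold (edgeR adjusted p = 0.108), although no ovary reached the lowest testis, as was so for 19.1% of all genes in that direction. The ar difference was -1.04 (SE 0.46, edgeR adjusted p = 0.149) and the esr1 difference was -0.01 (SE 0.77, edgeR adjusted p = 0.994). The esr2a call at 25 dpf was the only receptor call that any alternative run removed. It was lost without either of the 25 dpf ovaries, at -1.24 (adjusted p = 0.134) without ovary 1 and -1.66 (adjusted p = 0.119) without ovary 2, which leaves a single ovary assumed to vary like the other groups. With the replicate number added to the model, the esr2a difference was -1.59 and just missed the threshold (edgeR adjusted p = 0.0539). The call was also lost when 25 dpf testes 1 and 2 were left out together, at -1.14 (edgeR adjusted p = 0.0763). Those were the testes with the most muscle and the most liver marker RNA. Without those testes esr2b was -0.54 (edgeR adjusted p = 0.428) at 25 dpf. The remaining 25 dpf testis 4 still had 1065 CPM of liver markers. Over both ages the differences without them were -1.28 for esr2a (adjusted p = 0.0018) and -1.19 for esr2b (adjusted p = 0.0068).

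The sex difference itself did not change detectably between the ages for any receptor. The difference of the log2 fold changes, 30 dpf minus 25 dpf, was 0.08 for esr2a (95% interval -0.90 to 1.06) and -0.52 for esr2b (95% interval -1.96 to 0.91). It was 0.90 for ar (95% interval -0.44 to 2.24) and -1.01 for esr1 (95% interval -3.31 to 1.29). These intervals include changes of more than 2-fold. The edgeR adjusted p was 0.639 for ar and higher for the others. In this contrast edgeR called 0% of the tested genes, while 1952 genes had an unadjusted p under 0.05. DESeq2 called 40 genes higher and 28 lower.

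Within a sex, none of the receptors differed between the ages past the threshold. The level of ar averaged 25.5 ± 8.79 CPM in ovaries at 30 dpf (SD, n = 3) and 14.1 ± 10.1 CPM at 25 dpf (SD, n = 2), a log2 fold change of 0.85 (SE 0.48, edgeR adjusted p = 0.517). In ovaries esr2a averaged 85.1 CPM at 30 dpf and 85.0 CPM at 25 dpf, and esr2b averaged 41.4 CPM at 30 dpf and 41.3 CPM at 25 dpf. The 95% intervals of these age differences still ran from -0.75 to 0.75 for esr2a and from -1.11 to 1.12 for esr2b on the log2 scale. For esr1 in ovaries the age difference was -0.11 (95% interval -1.90 to 1.68). Of all tested genes, edgeR called 0% between ovaries of the 2 ages, while 2215 genes had an unadjusted p under 0.05. DESeq2 called 104 genes higher and 54 lower at 30 dpf.

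In testes, esr2b averaged 146 ± 72.5 CPM at 30 dpf (SD, n = 3) and 101 ± 60.1 CPM at 25 dpf (SD, n = 4), a log2 fold change of 0.53 (SE 0.42, edgeR adjusted p = 0.643). The level of esr1 averaged 11.9 ± 4.86 CPM in 30 dpf testes and 6.36 ± 2.36 CPM in 25 dpf testes, and its log2 fold change was 0.90 (SE 0.66, edgeR adjusted p = 0.616). Both sets of values overlapped between the ages. The age differences in testes were -0.05 for ar and -0.08 for esr2a on the log2 scale, and edgeR called 0.00518% of all tested genes, a single gene. For testes DESeq2 called 232 genes higher and 127 lower at 30 dpf, and without 30 dpf testis 1 edgeR called 46 higher and 24 lower.

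**Figure D2:**
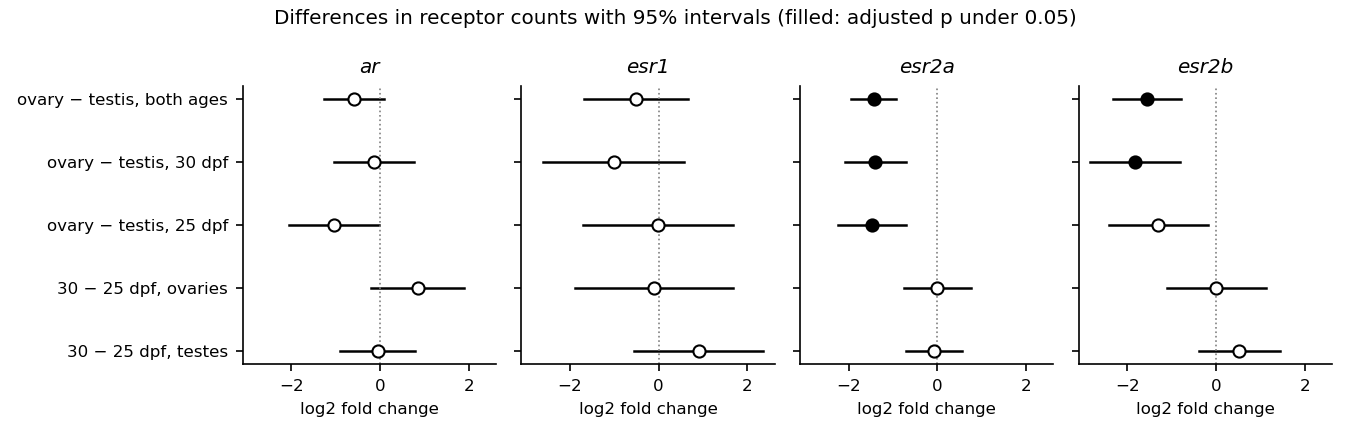
Log2 fold changes (horizontal axes) of each receptor in 5 comparisons, with 95% intervals as lines and filled points where the edgeR adjusted p was under 0.05. For esr2a all 3 comparisons of ovary with testis are filled, from -1.47 to -1.40, for esr2b those over both ages and at 30 dpf, and for ar and esr1 none.

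The 2 beta receptor genes were next compared with each other inside each gonad. The ratio of esr2a to esr2b counts does not depend on how libraries are scaled, although its absolute size includes the unequal lengths of the transcripts and is read only between gonads. In ovaries the ratio was 2.33, 2.37 and 1.62 at 30 dpf and 1.5 and 2.87 at 25 dpf. In testes it was 3.17, 1.16 and 1.03 at 30 dpf and 2.31, 1.84, 3.24 and 3.03 at 25 dpf. The ratio averaged 2.14 ± 0.57 in ovaries (SD, n = 5) and 2.25 ± 0.94 in testes (SD, n = 7), with the ovaries inside the range of the testes.

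The testes spread over a wider range of this ratio than the ovaries, and 30 dpf testes 2 and 3 had the lowest values of all 12 gonads. Their exact 95% binomial intervals, 1.04 to 1.31 and 0.95 to 1.12, did not reach that of 30 dpf testis 1, which was 2.86 to 3.52. Ovaries also lay apart by this measure, with 1.27 to 1.765 in 25 dpf ovary 1 and 2.40 to 3.45 in 25 dpf ovary 2. Intervals of this kind cover counting error only. Testis 3 had the highest esr2b level of all gonads (229 CPM), and testis 2 had the lowest esr2a level of all testes (132 CPM). The same 2 gonads had the highest summed level of markers of Sertoli cells, the supporting cells of the testis. Their summed level was 4654 CPM in testis 2 and 6437 CPM in testis 3, against 363 to 1429 CPM in the other testes and 453 to 1042 CPM in the ovaries. Markers of Leydig cells, which make androgens, summed to 786 CPM and 1835 CPM in these gonads and to at most 462 CPM in the others. Erythrocyte markers also stood out in them, at 990 CPM in testis 2 and 511 CPM in testis 3, against at most 166 CPM in the others, and testis 2 held the liver and gut markers given above. The part of these cell types in the ratio was not tested.

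**Figure D3:**
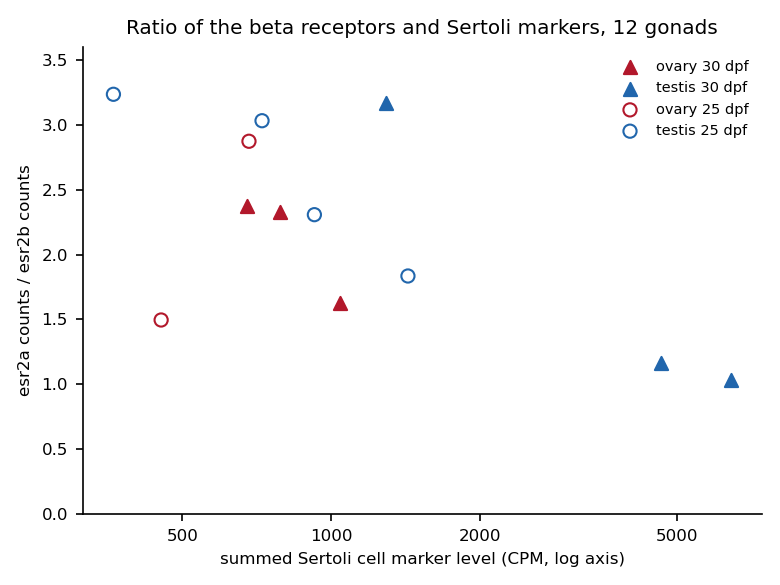
Ratio of esr2a to esr2b counts (vertical axis) against the summed level of Sertoli cell markers (horizontal log axis, CPM) in the 12 gonads, with triangles at 30 dpf and circles at 25 dpf. The 30 dpf testes 2 and 3 stand at the lower right with ratios of 1.16 and 1.03, while the other 10 gonads lie between 1.5 and 3.24.

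Relative to the androgen receptor, esr2a was low in the older ovaries. The ratio of esr2a to ar counts was 2.26, 4.88 and 3.77 in the 30 dpf ovaries, against 9.49, 5.39 and 8.67 in the 30 dpf testes. At 25 dpf it was 10.5 and 4.59 in ovaries, against 8.82, 7.67, 8.19 and 8.47 in testes. The 30 dpf groups did not overlap, but the higher 25 dpf ovary lay above all testes because ar had its lowest level there. Across the 4 receptors together, ar took 13.5% ± 6.46 of the reads in ovaries (SD, n = 5) and 7.48% ± 1.03 in testes (SD, n = 7). This share ranged from 5.07% to 23.2% in ovaries and from 5.45% to 8.55% in testes. The summed level of the 4 receptors was 136 to 168 CPM in ovaries and 250 to 579 CPM in testes. None of these ratios and shares was tested.

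The highest and the lowest gonad were the same for ar and esr2a, and the order between them was shared only in part. Their Spearman correlation was 0.60 over all 12 gonads and 0.89 over the 7 testes. For esr2a and esr2b it was higher over all gonads, at 0.78, and lower over the testes, at 0.43. For ar and esr2b it was 0.53 and 0.68. Pairs with esr1 reached at most 0.39 over all gonads and were negative over the testes. The 25 dpf testis 2 ranked 1st of the 12 gonads for ar and esr2a, 2nd for esr2b and 8th for esr1. The next gonad for ar, 30 dpf ovary 1, ranked 11th for esr2a. The lowest gonad was 25 dpf ovary 1 for ar and esr2a, 25 dpf ovary 2 for esr2b and 30 dpf ovary 2 for esr1. The variation between gonads of a group that edgeR estimated, as a biological coefficient of variation, was 29.4% for esr2a, 36.9% for ar, 39.7% for esr2b and 60.3% for esr1. The value of esr1 was higher than that of 83.2% of the tested genes.

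Levels of all 4 receptors were also set beside markers of the cells in which such receptors may be made. In whole gonads, fewer cells of a type and less RNA per cell cannot be told apart. Of the 9 tested markers of smooth muscle and stroma, 7 were called lower and 1 higher in ovaries, with a median log2 fold change of -1.09 against -0.13 over all tested genes. Their summed level was 1118 to 1983 CPM in ovaries and 2079 to 4110 CPM in testes, without overlap, and none of the 11 genes in the list was at 0 throughout a sex. Per 1000 CPM of these markers, esr2a had 59.0 ± 18.5 CPM in ovaries (SD, n = 5) and 77.7 ± 43.2 CPM in testes (SD, n = 7), and the ranges of 36.7 to 82.7 CPM in ovaries and 32.2 to 165 CPM in testes overlapped. For esr2b the values were 27.8 ± 5.84 in ovaries and 39.5 ± 26.0 in testes, again with overlapping ranges. On this scale ar had 15.4 ± 10.4 in ovaries and 9.58 ± 5.49 in testes, and esr1 had 3.58 ± 2.64 in ovaries and 2.62 ± 0.97 in testes. The ranges of the beta receptors were separate per total count, narrowly so for esr2b, and overlapped per stromal marker count. Since the marker sum was itself higher in every testis, dividing by it lowers any gene in testes relative to ovaries. How many other genes overlap on this scale was not counted. Summed leukocyte markers were likewise separate, at 250 to 298 CPM in ovaries and 323 to 610 CPM in testes. Most of this sum came from lcp1, which averaged 209 CPM in ovaries and 399 CPM in testes. The leukocyte markers ptprc (log2 fold change -0.16) and coro1a (0.65) were not called. The part of the stroma in the receptor differences was not tested.

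Other cell type markers were counted in the same way, beside 21.3% of all tested genes called lower and 21.9% called higher over both ages. Of the Sertoli cell markers 4 of 5 were called lower in ovaries, of the Leydig cell markers 3 of 4, of the endothelial markers 3 of 4 and of the leukocyte markers 2 of 4. At 25 dpf 0 of the Sertoli cell, Leydig cell and endothelial markers were called, beside 4.59% of all tested genes called lower. Their median log2 fold changes at that age were -0.59, -1.38 and -0.58, beside -0.09 over all tested genes. Of the stromal markers 3 of 9 were called lower at 25 dpf and 1 higher. Of the leukocyte and of the gut and pancreas markers 1 of 4 each was called lower, and of the germ cell markers 5 of 11 higher. The number of all tested genes called higher at that age is given in the last section. Of the erythrocyte markers 0 of 5 were called over both ages, and of the granulosa and theca cell markers 1 of 6 was called lower. Of 5 kidney markers 1 was called higher and 1 lower. Of the gut and pancreas markers 2 of 4 were called lower, and of the skeletal muscle markers 0 of 4 were called. Of the germ cell markers 6 of 11 were called higher in ovaries, with a summed level of 4317 to 6026 CPM in ovaries against 2338 to 2911 CPM in testes. Of the liver markers 2 of 6 were called lower in ovaries, with sums of 18.8 to 179 CPM in ovaries and 116 to 3045 CPM in testes. The part of these cells in the receptor differences was not tested.

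For each receptor, the 3 genes with the most similar pattern over the 12 gonads were found among 18374 tested genes with a symbol, by Pearson correlation of log2(CPM + 1). They were OSBPL8 (r = 0.93), si:ch211-59h6.1 (r = 0.89) and si:zfos-480g10.2 (r = 0.88) for ar. For esr1 they were sema6ca (r = 0.92), ATP9A (r = 0.88) and il2rga (r = 0.86). For esr2a they were ROBO2 (r = 0.97), c2cd2 (r = 0.96) and cdh12a (r = 0.96), and for esr2b FUT8, F10 and id2b (r = 0.95 each). The 12 gonads include both sexes, so genes that differ between the sexes score high for the beta receptors. With Spearman correlation 1 of the 3 genes was retained for ar, esr1 and esr2a, and 0 for esr2b.

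Most of the remaining steroid receptors were not called. This list held 18 genes of membrane progestin receptors, glucocorticoid and mineralocorticoid receptors, the progesterone receptor and oestrogen-related receptors. Of the 11 tested over both ages, 3 were called lower in ovaries, 0 were called higher and 8 were not called, beside 21.3% of all tested genes called lower and 21.9% called higher. The membrane progestin receptor gene paqr6 averaged 8.68 ± 2.04 CPM in ovaries and 28.4 ± 4.17 CPM in testes, a log2 fold change of -1.80 (SE 0.18, edgeR adjusted p = 4.8e-05). Its relative paqr9 had -1.06 (SE 0.30, edgeR adjusted p = 0.015), which was -0.99 (adjusted p = 0.0741) without 25 dpf ovary 2. The progesterone receptor gene pgr, a classical oestrogen target in other vertebrates, averaged 95.01 ± 31.4 CPM in ovaries and 121 ± 48.4 CPM in testes (log2 fold change -0.23, edgeR adjusted p = 0.507).

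Chaperones hold unliganded steroid receptors in a form able to bind hormone. Of 10 genes tested, 1 was called higher in ovaries and 0 lower, with a median log2 fold change of 0.02, beside 21.9% of all tested genes called higher and 21.3% lower. The called gene was ppid, a cyclophilin of the Hsp90 complex, which averaged 298 ± 68.3 CPM in ovaries and 222 ± 26.4 CPM in testes (log2 fold change 0.47, edgeR adjusted p = 0.0072). The immunophilin fkbp5, a target of androgen and glucocorticoid receptors in mammals, averaged 113 ± 160 CPM in ovaries and 193 ± 306 CPM in testes. Its sex difference was not called (edgeR adjusted p = 0.405). These SDs mix the ages, but the spread was also wide within 30 dpf. At that age fkbp5 averaged 178 ± 187 CPM in ovaries and 422 ± 379 CPM in testes (SD). At 25 dpf it averaged 14.1 CPM in ovaries and 22.4 CPM in testes. The age differences were not called either (edgeR adjusted p = 0.409 in ovaries and 0.215 in testes).

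Coregulators are the proteins that receptors recruit to activate or silence genes. Of 25 tested over both ages, 9 were called lower in ovaries, 3 were called higher and 13 were not called, beside 21.3% of all tested genes called lower and 21.9% called higher. At 25 dpf 1 of them was called lower and 2 higher, beside 4.59% of all tested genes called lower at that age. How many of all tested genes were called higher at 25 dpf is given in the last section. The median log2 fold change of the coregulators over both ages was -0.45, beside -0.13 over all tested genes. The acetyltransferase gene kat2b averaged 4.95 ± 1.37 CPM in ovaries and 13.2 ± 7.18 CPM in testes (log2 fold change -1.43, edgeR adjusted p = 0.0012). An EP300 gene (ENSDARG00000100666), which encodes another histone acetyltransferase, had a log2 fold change of -1.58 (SE 0.42, edgeR adjusted p = 0.011), and -1.24 (adjusted p = 0.0709) without 25 dpf ovary 2. In the other direction, the RNA helicase gene ddx5 averaged 1698 ± 99.9 CPM in ovaries and 1053 ± 146 CPM in testes (log2 fold change 0.69, edgeR adjusted p = 0.00075). The arginine methyltransferase gene prmt1 averaged 1351 ± 80.8 CPM in ovaries and 847 ± 86.3 CPM in testes (log2 fold change 0.68, edgeR adjusted p = 0.00018).

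Genes that make and break down the hormones contained the largest fold changes among the 6 lists of pathway genes. Of 18 tested, 2 were called higher and 4 lower in ovaries, beside 21.9% of all tested genes called higher and 21.3% lower. A CYP11A1 gene (ENSDARG00000002347), which encodes the enzyme that starts steroid synthesis from cholesterol, averaged 494 ± 406 CPM in ovaries and 8.64 ± 5.38 CPM in testes (log2 fold change 5.02, edgeR adjusted p = 7.4e-05). Another gene with the symbol CYP11A1 averaged 19.7 ± 6.84 CPM in ovaries and 30.7 ± 27.7 CPM in testes (log2 fold change -0.66, edgeR adjusted p = 0.257). The gene hsd3b2, for the next enzyme of the pathway, averaged 79.9 ± 59.3 CPM in ovaries and 1.27 ± 1.51 CPM in testes (log2 fold change 5.45, edgeR adjusted p = 0.00014). Its relative hsd3b1 leaned the other way, with -1.18 over both ages (edgeR adjusted p = 0.0601) and -2.56 at 30 dpf (edgeR adjusted p = 0.011). The gene cyp11c1, needed for 11-ketotestosterone, averaged 1.53 ± 0.90 CPM in ovaries and 103 ± 130 CPM in testes (log2 fold change -5.74, edgeR adjusted p = 0.00091). The cholesterol transporter gene star was lower in ovaries with a log2 fold change of -3.86 (edgeR adjusted p = 0.011), a call lost without 25 dpf ovary 1 (adjusted p = 0.0510) or ovary 2 (adjusted p = 0.0701).

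The aromatase that makes oestrogen is encoded by CYP19A1, and the name table gave this symbol to 1 gene used here (ENSDARG00000041348). Its level ranged from 8.33 to 49.8 CPM in ovaries and from 1.01 to 37.5 CPM in testes, so that the sexes overlapped (log2 fold change 0.50, edgeR adjusted p = 0.599). The value was -0.15 without 30 dpf ovary 3, the ovary with the most esr1, and 1.83 (edgeR adjusted p = 0.0258) without 30 dpf testis 1.

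Genes known to respond to these hormones in zebrafish or other vertebrates gave 1 call, higher in ovaries, among 7 tested. Of all tested genes 21.9% were called higher and 21.3% lower in this comparison over both ages. The 7 include pgr and fkbp5. They also include the CYP19A1 gene described above, which was matched to the listed cyp19a1b only through a symbol shared by paralogues. The egg yolk protein genes, induced by oestrogen in liver, were nearly silent here, with at most 6 counts in an ovary and 19 in a testis for vtg3 and at most 4 counts in any gonad for the other vitellogenin genes of the list. The gene nots, a liver protease induced by oestrogen, averaged 8.21 ± 2.50 CPM in ovaries and 1.43 ± 1.42 CPM in testes (log2 fold change 2.81, edgeR adjusted p = 0.00074). The oestrogen-responsive greb1 averaged 22.3 ± 13.2 CPM in ovaries and 14.8 ± 10.8 CPM in testes (edgeR adjusted p = 0.338).

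The last list held gonadotropin receptors and local growth factors, which act beside the steroids in the gonad. Of 11 tested, 1 was called higher and 4 lower in ovaries, beside the same shares of all genes. An INHBA gene (ENSDARG00000024759), which encodes an activin subunit, averaged 0.999 ± 0.506 CPM in ovaries and 35.2 ± 39.2 CPM in testes (log2 fold change -4.72, edgeR adjusted p = 0.0014). The related INHBB averaged 14.4 ± 1.88 CPM in ovaries and 95.5 ± 78.5 CPM in testes (log2 fold change -2.64, edgeR adjusted p = 0.0012). An RXFP2 gene (ENSDARG00000019660), for a receptor of insulin-like peptides, averaged 4.32 ± 2.78 CPM in ovaries and 0.757 ± 0.655 CPM in testes (log2 fold change 2.43, edgeR adjusted p = 0.015). It had at most 7 counts in a testis. Another gene with the symbol RXFP2 averaged 12.1 ± 4.78 CPM in ovaries and 13.6 ± 4.77 CPM in testes (log2 fold change -0.36, edgeR adjusted p = 0.344). The lists share genes with each other and with the cell type markers, so their counts are not independent.

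**Figure D4:**
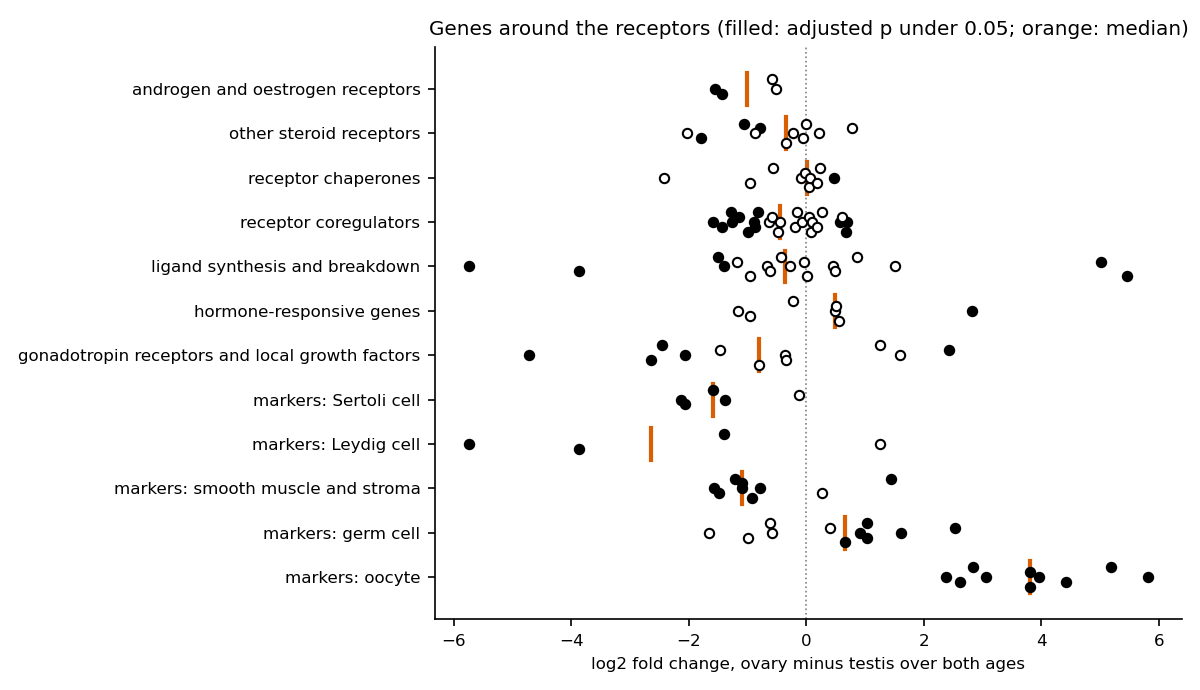
Log2 fold change of ovary minus testis over both ages (horizontal axis) for each tested gene of the receptors, 6 lists of pathway genes and 5 lists of cell type markers. Filled points had an edgeR adjusted p under 0.05, and orange bars are medians. The beta receptors lie at -1.43 and -1.56. The marker medians are -1.09 for stroma, -1.59 for Sertoli cells, -2.63 for Leydig cells and 0.66 for germ cells. All 10 oocyte markers lie above 2.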

How the data were processed

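RNA of single gonads was reverse transcribed and amplified as cDNA before libraries were made by the authors. The deposited table holds raw counts per gene, which the authors made with FastQC 0.11.8, MultiQC 0.9, HISAT2 2.0.5, SAMtools 1.5, Picard and HTSeq 0.9.1 on GRCz11, removing duplicates and counting exons in the reverse-stranded mode. The columns carry the words big or small, the age and a number. Following the study's description of juvenile gonads, big columns stand for ovaries and small ones for testes here, and their numbers for the replicates of the labels, which the sources do not state outright.

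Genes were filtered with filterByExpr, which kept 19292 of 32520, and scaled by TMM. The quasi-likelihood test of edgeR 4.0.16 (R 4.3.3) was fitted to all 12 gonads with 1 mean per group, with Benjamini-Hochberg adjustment over all tested genes and a threshold of 0.05. Each fold change is ovary minus testis or 30 dpf minus 25 dpf. No pair of gonads of a group agreed within sampling noise (chi-square per degree of freedom at least 11.4). The scripts were tested on simulated data.

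The receptors, gene lists and markers were chosen with earlier results of these data known. Named from each list were at most the 2 called genes with the largest change in each direction. Also named, whether or not called, were pgr, fkbp5, greb1, CYP19A1, further CYP11A1 and RXFP2 genes, hsd3b1, the FOXL2 genes, lcp1, ptprc and coro1a. The name table gives the symbol ESR2 to both beta receptor genes and shared symbols to other duplicates. Alternatives were DESeq2 1.42.0, RLE and upper-quartile scaling, other filters, fewer groups, robust dispersion, a replicate block, each gonad left out, CPM without TMM and Spearman correlation. Leaving out 25 dpf testes 1 and 2 together was chosen after seeing the data.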

Additional observations from a re-analysis of the deposited data

How the results depend on the processing

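Over both ages and at 30 dpf, esr2a and esr2b stayed lower in ovaries and past the threshold in every alternative run. Leaving out each gonad gave log2 fold changes over both ages of -1.54 to -1.29 for esr2a, -1.67 to -1.29 for esr2b, -1.06 to -0.25 for ar and -1.34 to -0.26 for esr1. At 30 dpf the ranges were -1.64 to -1.12 for esr2a, -2.05 to -1.34 for esr2b, -0.45 to 0.020 for ar and -2.68 to -0.53 for esr1. At 25 dpf they were -1.66 to -1.21 for esr2a (adjusted p up to 0.134), -1.55 to -0.79 for esr2b, -2.01 to -0.41 for ar and -0.46 to 0.39 for esr1. The change of the sex difference ranged from -0.20 to 0.36 for esr2a. The age difference in ovaries ranged from -0.17 to 0.24 for esr2a, -0.21 to 0.31 for esr2b and -1.77 to 0.41 for esr1, and in testes from -0.36 to 0.22 for esr2a and -0.16 to 0.27 for ar. For CYP19A1 the range was -0.15 to 1.83.

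The near-zero difference of esr1 at 25 dpf changed sign with DESeq2 (0.0018), RLE scaling (0.0017), no filter (0.041) and the replicate block (0.10). The age difference of ovaries changed sign under upper-quartile scaling (-0.061 for esr2a and -0.054 for esr2b), with only the groups compared (-0.028 for esr2a and -0.021 for esr2b) and with the block for esr2b (-0.10). Upper-quartile scaling gave -0.0047 for the change of the esr2a sex difference, and it moved the median of all genes over both ages to -0.27. Without 25 dpf testes 1 and 2, the esr2a difference at 25 dpf was -1.14 (adjusted p = 0.0763), the change of its sex difference -0.28, its age difference -0.019 in ovaries and 0.26 in testes, that of esr2b in ovaries -0.012 and that of ar in testes 0.32. The causes were not tested. The filter of at least 10 counts in every gonad leaves esr1 untested.

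The mean correlation of deviations over 15 pairs of gonads with the same replicate number was -0.0034, with a range of -0.24 to 0.14. Of the 12 gonads 4 correlated best with their own number. Deviations from the means of so few gonads are tied to each other, and no chance value was computed. These values therefore cannot decide whether replicate numbers pair the gonads. With the replicate block the esr2a difference at 25 dpf was -1.59 (edgeR adjusted p = 0.0539), and 937 genes were called higher and 368 lower at 25 dpf, against 1666 and 886 without it.

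Counts of called genes moved more than the receptors. At 25 dpf, genes called lower numbered 1621 with DESeq2, 581 without a filter and 346 with only the groups compared (850 higher), and 261 without 25 dpf testes 1 and 2 (427 higher). For the change of the sex difference, DESeq2 called 40 higher and 28 lower, and 1 gene was called lower without a filter, with at least 10 counts or with robust dispersion, and 5 without these testes. Between the ages DESeq2 called 104 higher and 54 lower in ovaries and 232 higher and 127 lower in testes. In testes 0 genes were called higher with upper-quartile scaling, only the groups compared or the block, 7 without a filter or with robust dispersion, 12 with at least 10 counts, and 9 higher and 2 lower without those testes. Leaving out each gonad gave 2139 to 4245 genes lower over both ages, 81 to 1774 higher and 11 to 921 lower at 25 dpf, 1985 to 3279 lower at 30 dpf, 0 to 3 higher and 0 to 3 lower for the change of the sex difference, 0 to 2 higher and 0 to 1 lower between ovaries, and 0 to 46 higher and 0 to 24 lower between testes. The lowest counts at 25 dpf and over both ages came without 25 dpf ovary 2. Without TMM the mean esr2a level in 30 dpf ovaries was 74.3 CPM.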
